A study of Homo sapiens with 12 samples.

Results

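The miR-200 family of microRNAs (miRNAs), best known from epithelial cells, was read in a plasma cell cancer line. The members were every assay for miR-141, miR-200a, miR-200b, miR-200c or miR-429 on a quantitative PCR array, whichever arm of the hairpin the assay reads. The array held 384 wells, 12 of them control wells and the others 1 miRNA assay each. The members numbered 7 of these miRNA assays, and 7 of the 314 that gave a signal on all 12 arrays: hsa-miR-141-3p, hsa-miR-200a-3p, hsa-miR-200b-3p, hsa-miR-200c-3p and hsa-miR-429, with the opposite arms hsa-miR-200a-5p and hsa-miR-200c-5p. The cells were OCI-My5, a human multiple myeloma line with little cereblon (CRBN), the protein that lenalidomide binds. My5.LV carried the empty lentiviral vector and stayed low in CRBN, and My5.CRBN carried a lentiviral CRBN cDNA. Both lines were analysed in 6 states: un-treated, with lentiviral AGO2 (EIF2C2) cDNA, with the AGO2 short hairpin RNA sh72, after 72 hours in lenalidomide at 10 µM, after 120 hours in it, and with AGO2 cDNA and 72 hours of the drug together. AGO2 is the Argonaute protein that holds mature miRNAs and cuts or silences their target messages. Each state was read on 1 array, and each line was 1 infected population, so no state had a replicate. No array is labelled as cells given only the vector of the AGO2 constructs or only the drug's solvent. Effects of infection, puromycin selection or solvent can therefore not be told apart from those of AGO2 or lenalidomide.

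The family is known for keeping epithelial cells epithelial. Its members repress the transcription factors ZEB1 and ZEB2, which in turn shut down E-cadherin and the miR-200 genes themselves. A miRNA finds its targets mainly through its seed, bases 2 to 8 from the 5′ end, and after the hairpin is cut the 3p or the 5p arm is loaded into Argonaute.

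In the RefSeq annotation of GRCh38.p14 the 5 hairpins lie in 2 clusters, each inside a long non-coding host gene. MIR200B, MIR200A and MIR429 lie within chr1:1167104-1169087, a span of 1984 bases inside MIR200BHG. MIR200C and MIR141 lie within chr12:6963699-6964191, a span of 493 bases inside MIR200CHG. RefSeq held the mature sequence for 7 of 7 member assays, and they are shown here because the grouping by seed and by cluster is used for every result, with the seed in capitals.

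hsa-miR-200c-3p: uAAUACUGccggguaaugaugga
hsa-miR-200b-3p: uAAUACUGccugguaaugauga
hsa-miR-429: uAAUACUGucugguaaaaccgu
hsa-miR-141-3p: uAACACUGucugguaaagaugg
hsa-miR-200a-3p: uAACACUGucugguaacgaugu
hsa-miR-200c-5p: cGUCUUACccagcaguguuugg
hsa-miR-200a-5p: cAUCUUACcggacagugcugga

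hsa-miR-200b-3p, hsa-miR-200c-3p and hsa-miR-429 share the seed AAUACUG. hsa-miR-141-3p and hsa-miR-200a-3p share the seed AACACUG, which differs from it at 1 base. From hsa-miR-141-3p to hsa-miR-200c-3p that change is C4U, counted from the 5′ end. Seed and cluster cross, since each cluster holds both seeds. No other miRNA on the array had either seed. Counted over the first 22 bases, hsa-miR-200b-3p and hsa-miR-200c-3p were identical at 20 positions, and so were hsa-miR-141-3p and hsa-miR-200a-3p. Whether an assay also reads its near-identical relative was not tested.

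The promoter windows of the host genes are shown for one motif, the E-box CACCTG or its reverse complement CAGGTG, the letters that ZEB1 is known to bind. The window of 300 bases, from 250 before to 50 after the start site, held 2 E-boxes for MIR200BHG and 1 for MIR200CHG. Of 35116 promoter windows in the RefSeq table, 20.6% held at least 1 and 3.49% at least 2. The motif stands in capitals.

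MIR200BHG, chr1:1162763-1162792, plus strand: gcccaggggacaCACCTGtcgggggccagg
MIR200BHG, chr1:1162807-1162836, plus strand: agcgggagctcgCACCTGtgtggggcgggg
MIR200CHG, chr12:6963155-6963184, plus strand: ggcaggaggacaCACCTGtgcgcagggtgg

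These letters are a description of the windows, and binding was not measured here.

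All 7 assays gave a signal on every array. PCR counts the cycles a product needs to reach a set brightness (its cycle threshold, Ct), so that 1 cycle earlier stands for about 2 fold more template, and a Ct of 35 or later was taken as not detected. The 7 assays were under Ct 35 in 84 of 84 wells. hsa-miR-200c-3p came up first, at a median Ct of 25.5 (range 23.5 to 27.2). It was followed by hsa-miR-141-3p at 26.6 (24.4 to 28.2) and hsa-miR-200b-3p at 26.8 (24.9 to 29.5). hsa-miR-200a-5p had a median Ct of 29.5 (26.6 to 31.7), hsa-miR-200c-5p 30.3 (27.9 to 31.8), hsa-miR-200a-3p 30.9 (29.0 to 32.7) and hsa-miR-429 31.3 (29.0 to 32.8). Primer efficiency differs between assays, so this order is one of Ct and not of amounts.

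Ct 35 was a mild limit on these arrays. Between 324 and 367 miRNA assays passed it on an array, and 314 passed it on all 12. A stricter yardstick was the worm miRNA cel-miR-39-3p, which human cells lack and whose addition to these samples is not given in the sources used here. The earlier of its 2 wells came up at Ct 31.5 to 34.6. All 84 member wells came up before it on their own array. The margin was at least 6.17 cycles for hsa-miR-200c-3p. It was at least 1.38 cycles for hsa-miR-429, 1.495 for hsa-miR-200c-5p and 1.73 for hsa-miR-200a-3p. The 2 wells of cel-miR-39-3p themselves differed by 1.43 cycles (root mean square over 12 arrays). The least margin of hsa-miR-429 lay within that difference, and those of hsa-miR-200c-5p and hsa-miR-200a-3p were little wider. For these late assays the yardstick therefore does not settle detection on every array.

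Among all miRNA assays of the array, 29.3% had a lower median Ct than hsa-miR-200c-3p, and 75.5% had a lower one than hsa-miR-429. The cell type was checked with 5 blood cell markers. miR-142-3p, which is made in blood cells, had the lowest median Ct of the array at 16.6, and 4 of 5 markers were under Ct 35 on all 12 arrays. The fifth, miR-155-5p, came up late, at a median Ct of 32.6, and 83.9% of assays had a lower one. It was under Ct 35 on 11 arrays and before cel-miR-39-3p on 9. Of 7 other miRNAs of epithelial cells, 6 passed on all 12 arrays, with miR-182-5p, miR-183-5p and miR-96-5p at median Cts of 25.01, 25.7 and 26.0. miR-203a, typical of skin, was detected on 9 arrays at a median Ct of 34.1. Markers of other tissues were not absent either. miR-1, a muscle miRNA, had a median Ct of 21.1, and miR-122-5p of liver one of 33.9. A Ct under 35 therefore did not set the family apart from miRNAs of unrelated tissues. Nor did the worm yardstick. miR-1 and the neuron miRNA miR-124-3p (median Ct 28.6) also came up before cel-miR-39-3p on all 12 arrays. miR-122-5p and the muscle miRNA miR-208a-3p did so on 6 arrays each.

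Levels were set relative to 6 small RNA wells of the same array (SNORD61, SNORD68, SNORD72, SNORD95, SNORD96A and RNU6-2). Their mean Ct ranged from 18.7 to 21.9. A level here is that mean Ct minus the Ct of the assay, a log2 value that is negative wherever the miRNA came up later than the control wells. It can be compared across arrays for 1 assay, and not between assays.

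hsa-miR-200c-3p varied over 2.54 log2 units. In My5.LV its level was -4.64 un-treated, -4.56 with AGO2 cDNA, -5.93 with AGO2-sh72, -4.93 at 72 hours of lenalidomide, -4.77 with AGO2 cDNA plus lenalidomide, and -4.03 at 120 hours. In My5.CRBN the levels in the same order were -5.49, -5.29, -6.58, -5.93, -5.66 and -5.46. On this scale 5 of the 6 My5.LV arrays lay above every My5.CRBN array, and the exception was My5.LV with AGO2-sh72. The AGO2-sh72 array was the lowest of its line in both lines.

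hsa-miR-200b-3p, from the other cluster but with the same seed, followed a like course in My5.LV. Its levels in My5.LV were -6.08 un-treated, -6.43 with AGO2 cDNA, -7.59 with AGO2-sh72, -6.01 at 72 hours of lenalidomide, -6.14 with AGO2 cDNA plus lenalidomide and -5.37 at 120 hours. In My5.CRBN they were -6.79, -7.66, -7.72, -7.25, -6.87 and -6.91. There the AGO2 cDNA array was the highest of the line for hsa-miR-200c-3p, while for hsa-miR-200b-3p only the AGO2-sh72 array was lower. Again every My5.LV array other than AGO2-sh72 lay above all 6 My5.CRBN arrays. How many miRNAs outside the family did so was not counted.

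hsa-miR-141-3p, the chromosome 12 neighbour of hsa-miR-200c-3p, lay between -7.19 and -5.61 in My5.LV and between -7.17 and -6.34 in My5.CRBN. The lowest array in each line was AGO2-sh72. hsa-miR-429 lay between -11.68 and -9.52 in My5.LV and between -11.33 and -10.37 in My5.CRBN, with AGO2-sh72 again lowest in both. hsa-miR-200a-3p had My5.LV levels of -11.35 to -9.39 and My5.CRBN levels of -10.84 to -9.95. Its lowest My5.LV array was the un-treated one and its highest was 120 hours of lenalidomide.

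The 5p arms had their own order. hsa-miR-200a-5p was highest in My5.CRBN at 72 hours of lenalidomide (-7.52) and lowest in My5.LV at 120 hours (-10.11). hsa-miR-200c-5p was also highest in My5.CRBN at 72 hours (-8.81), and its lowest arrays were the 120 hour arrays of My5.CRBN (-11.52) and My5.LV (-11.27). With 1 array a state there is no spread within a state, so neighbours in these orders cannot be told apart.

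**Figure D1:**
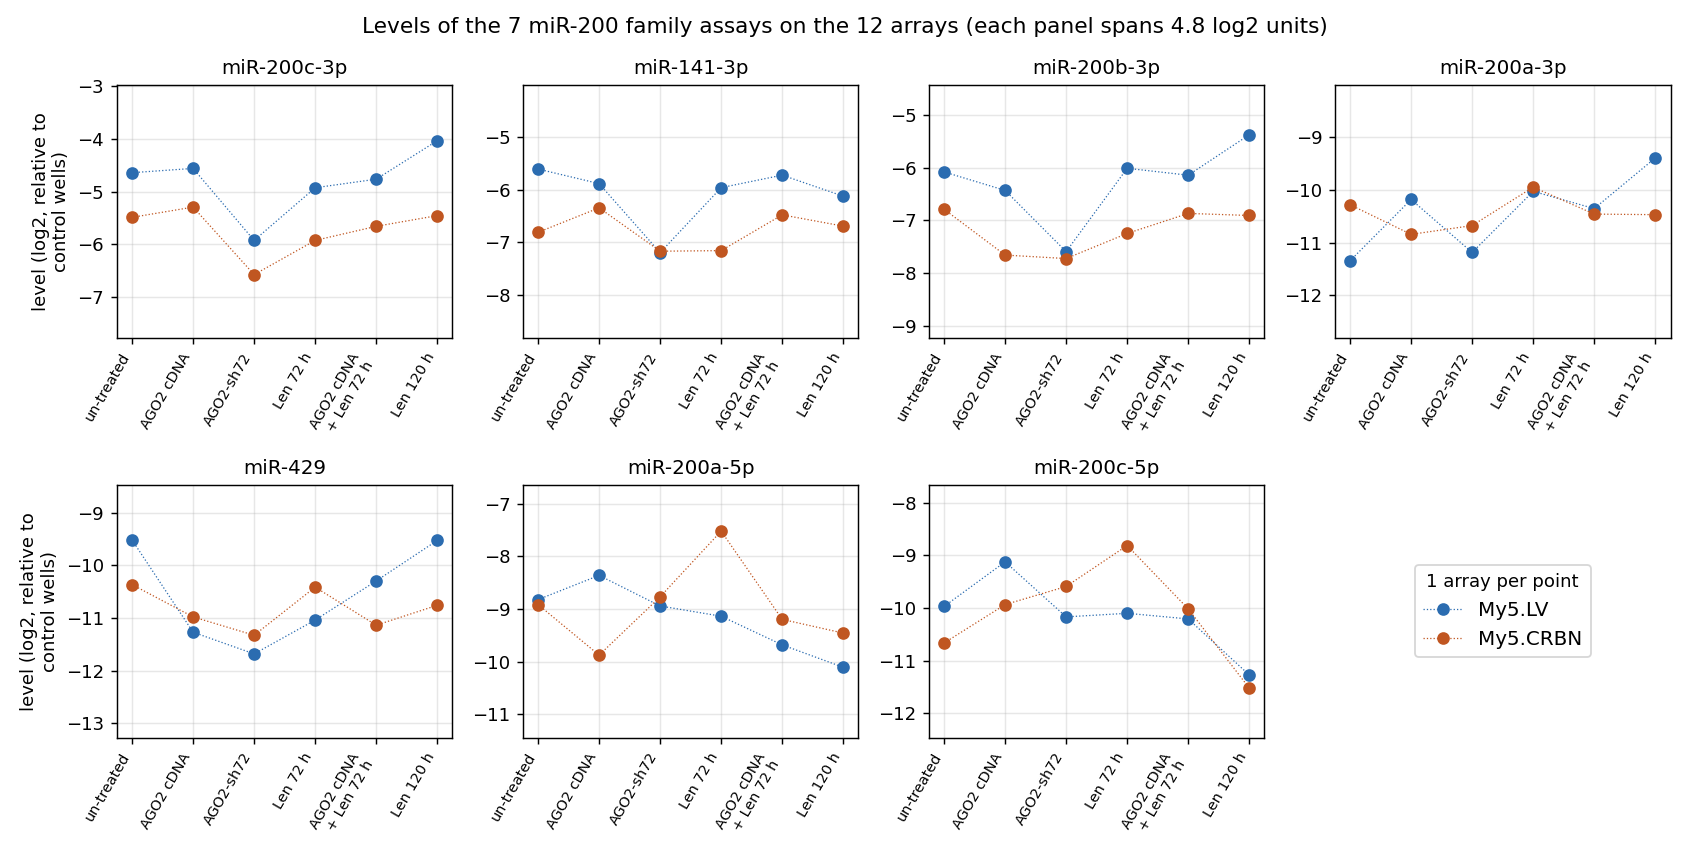
Level of each of the 7 assays (log2, relative to the 6 control wells, vertical axis) in the 6 states (horizontal axis) of My5.LV in blue and My5.CRBN in orange, 1 array per point, with dotted lines that guide the eye. hsa-miR-200c-3p lies lower in My5.CRBN in 6 of 6 states, while both 5p arms peak in My5.CRBN at 72 hours of lenalidomide.

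The study used CRBN to separate cells that resist lenalidomide (My5.LV) from cells that respond to it (My5.CRBN), and the first comparison set My5.CRBN against My5.LV in the 6 matched states. hsa-miR-200c-3p was lower in My5.CRBN in 6 of 6 states, by 0.65 to 1.42 on the log2 scale. The mean level was -4.81 ± 0.63 in My5.LV and -5.73 ± 0.47 in My5.CRBN (SD, n = 6 states), a log2 difference of -0.92 ± 0.20 (SE) with a 95% interval from -1.36 to -0.49. In limma over 314 miRNAs, with state as a covariate, this passed the threshold of 0.05 at an adjusted p of 0.0313. hsa-miR-200b-3p was also lower in 6 of 6 states, with differences from -1.53 to -0.13. How many of all 314 miRNAs were lower in 6 of 6 states was not counted. The log2 difference of hsa-miR-200b-3p was -0.93 ± 0.23 (SE) and its limma adjusted p of 0.0542 missed the threshold.

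hsa-miR-141-3p had a lower value in My5.CRBN in 5 of 6 states and a log2 difference of -0.69 ± 0.22 (SE, limma adjusted p = 0.137). The other 4 assays did not pass. Their log2 differences were -0.27 for hsa-miR-429 (95% interval -0.91 to 0.37), -0.03 for hsa-miR-200a-3p (-0.67 to 0.60), 0.05 for hsa-miR-200c-5p (-0.60 to 0.70) and 0.22 for hsa-miR-200a-5p (-0.55 to 0.99). Each of these 4 intervals included 0. Each also overlapped the interval of hsa-miR-200c-3p (-1.36 to -0.49), and the difference between members was not tested.

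In this comparison limma called 10 of 314 miRNAs, or 3.18%, and 3 of them, or 0.955%, were lower in My5.CRBN. One of the 7 members was among these 3. The call for hsa-miR-200c-3p held without the AGO2 cDNA pair (adjusted p = 0.0368) but was lost without any one of the other 5 pairs, at 0.0994 without the un-treated arrays, 0.0762 without AGO2-sh72, 0.109 without 72 hours of lenalidomide, 0.0960 without AGO2 cDNA plus lenalidomide and 0.0629 without 120 hours. The log2 difference then stayed between -0.98 and -0.83. The p-values measure how far the states disagree about the lines, not the spread between separately made lines.

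**Figure D2:**
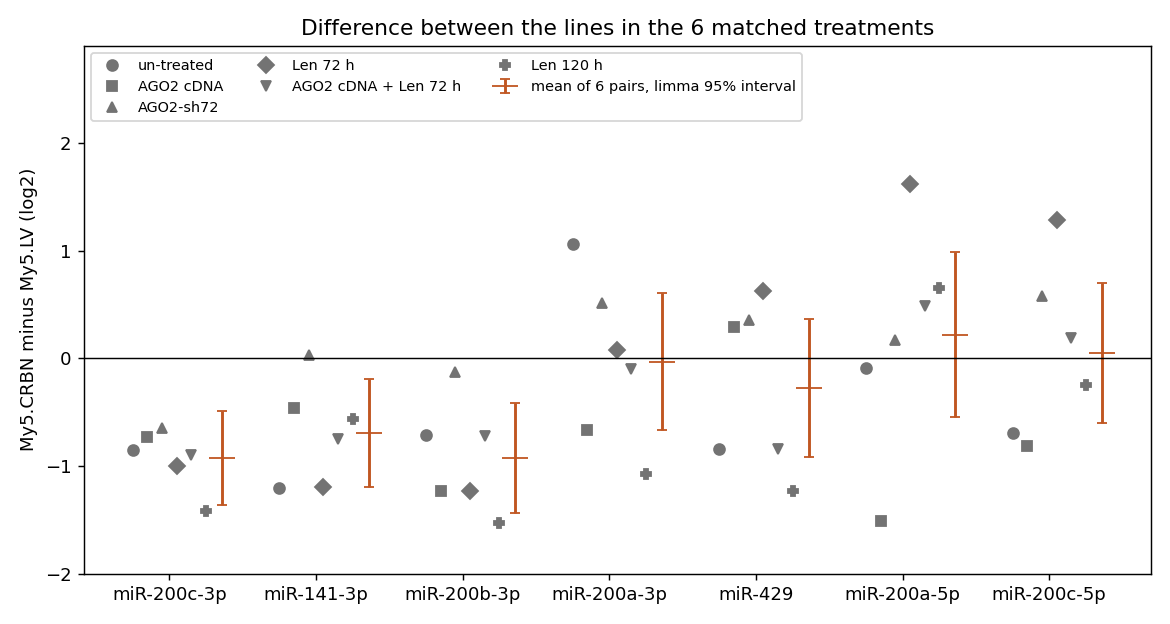
Log2 difference My5.CRBN minus My5.LV (vertical axis) for each assay (horizontal axis), with 1 grey symbol per state and, in orange, the mean of the 6 states with the 95% interval from limma. The symbols of hsa-miR-200c-3p and hsa-miR-200b-3p all lie below 0, those of hsa-miR-141-3p in 5 of 6 states, and those of the other assays lie on both sides.

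State by state, the fixed rule of at least 3 fold between 2 arrays called 1 member. hsa-miR-200a-5p was 3.07 fold higher in My5.CRBN at 72 hours of lenalidomide, where 9.95% of all miRNA assays passed that rule in either direction. No member passed it between the lines un-treated (4.03% of assays), with AGO2 cDNA (10.8%), with AGO2-sh72 (4.03%), with AGO2 cDNA plus lenalidomide (8.87%) or at 120 hours of lenalidomide (12.9%).

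The AGO2 arrays asked how the Argonaute that carries miRNAs bears on their steady-state levels. AGO2 message itself is not read on the array, so the knockdown and the overexpression could not be checked here. By western blot, the study reports less AGO2 protein with sh72 and more with AGO2 cDNA in both lines. It also reports less AGO2 protein in My5.CRBN than in My5.LV. With AGO2-sh72, averaged over the 2 lines, 3 of 7 members fell, beside 37.9% of all miRNAs tested. hsa-miR-200c-3p fell by 1.19 on the log2 scale (SE 0.34, limma adjusted p = 0.0220), hsa-miR-200b-3p fell by 1.22 (SE 0.40, adjusted p = 0.0342) and hsa-miR-429 fell by 1.56 (SE 0.50, adjusted p = 0.0315). Each value is the mean of 2 differences, 1 per line. The SE and the p-values measure how far the 2 lines disagree about the states, not the spread between repeated cultures or infections. The same holds for every treatment averaged over both lines.

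Each of these 3 was lower in both lines. hsa-miR-200c-3p differed by -1.29 in My5.LV and -1.09 in My5.CRBN, hsa-miR-200b-3p by -1.51 and -0.94, and hsa-miR-429 by -2.16 and -0.96. hsa-miR-141-3p was lower too, by -1.59 and -0.36, with a limma adjusted p of 0.0713, which became 0.00730 with RNU6 alone and 0.0218 with the reverse transcription control as normalizer. hsa-miR-200a-3p (log2 difference -0.12), hsa-miR-200a-5p (0.01) and hsa-miR-200c-5p (0.44) did not pass, and their limma adjusted p-values were 0.894, 0.990 and 0.567.

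The family did not stand apart from the array in this. With AGO2-sh72 122 of 314 miRNAs, or 38.9%, were called, and 119 of them, or 37.9%, were lower, while the median of all 314 was -0.76. That shift depended on the normalizer. The median was -1.47 with RNU6 alone (186 called) and -0.98 with the reverse transcription control (148 called). Centring each array on the mean of its own miRNAs removes a shift shared by all of them by construction. It therefore cannot show whether such a shift was present. With that centring the median of all became -0.05, 32 miRNAs were called and 0 of 7 members. The log2 differences of hsa-miR-200c-3p, hsa-miR-200b-3p and hsa-miR-429 were then -0.48, -0.52 and -0.86, with limma adjusted p-values of 0.332, 0.324 and 0.220. All 3 calls were also lost without the un-treated My5.LV, the un-treated My5.CRBN or the My5.LV AGO2-sh72 array, where limma called 0, 4 and 4 miRNAs in all. They held without the My5.CRBN AGO2-sh72 array.

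Array by array, AGO2-sh72 put 2 members past 3 fold in My5.LV, hsa-miR-429 at 4.48 fold lower and hsa-miR-141-3p at 3.00 fold lower, against 25.5% of assays. This count turned on the normalizer, with 0 members past 3 fold with the global mean, 1 with the 5 SNORD wells, 3 with the reverse transcription control and 4 with RNU6 alone. hsa-miR-200b-3p lay just inside that limit at 2.85 fold lower. In My5.CRBN no member passed, against 14.5% of assays.

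With AGO2 cDNA no member passed the test. Averaged over both lines limma called 1 of 314 miRNAs (0.318%) and none of the members, and hsa-miR-429 had the largest member difference at -1.18 ± 0.50 (SE, limma adjusted p = 0.435). In My5.LV hsa-miR-429 was 3.37 fold lower with AGO2 cDNA, the 1 member past 3 fold where 6.72% of assays were. In My5.CRBN no member passed, against 8.33% of assays. hsa-miR-200c-5p was higher with AGO2 cDNA in both lines, by 0.85 and 0.73, and hsa-miR-200b-3p lower in both, by -0.35 and -0.87, without passing the test.

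Set directly against AGO2-sh72, AGO2 cDNA gave higher values for all 7 members in My5.LV, from 0.41 to 1.37 on the log2 scale, and none reached 3 fold, against 22.6% of assays. The median of the members was 1.05 and that of all assays was 0.86. In My5.CRBN 4 of 7 were higher, no member reached 3 fold, and 13.7% of assays did. The members' median was 0.07 and that of all assays 0.41.

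With lenalidomide, which acts through CRBN, no member passed a test on the average of both lines. That average joins My5.LV, which resists the drug, with My5.CRBN, which responds, so a difference confined to 1 line is diluted. The intervals were wide, at 72 hours from -0.27 to 1.93 for hsa-miR-200a-3p and from -1.89 to 0.32 for hsa-miR-429. The test therefore does not show that the family was unaffected. Averaged over both lines, limma called 0% of 314 miRNAs at 72 hours and 12 had an unadjusted p under 0.05, none of them a member. At 120 hours limma called 29, or 9.24%, and none of the 7 members. The largest member differences at 120 hours were -1.08 ± 0.51 (SE) for hsa-miR-200c-5p (limma adjusted p = 0.226), -0.91 ± 0.60 for hsa-miR-200a-5p and 0.88 ± 0.49 for hsa-miR-200a-3p.

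Single arrays showed larger values in places. In My5.CRBN at 72 hours hsa-miR-200c-5p was 3.61 fold higher than un-treated, where 11.6% of assays passed 3 fold, and hsa-miR-200a-5p lay below that limit at 2.63 fold higher. The 3p arms of the same hairpins were at -0.44 for hsa-miR-200c-3p and 0.33 for hsa-miR-200a-3p on the log2 scale. In My5.LV at 72 hours no member passed, against 1.08% of assays, with hsa-miR-429 lowest at -1.52 and hsa-miR-200a-3p highest at 1.32. At 120 hours in My5.LV hsa-miR-200a-3p was 3.87 fold higher, against 18.5% of assays. In My5.CRBN at 120 hours no member passed, against 18.5% of assays, and the members lay between -0.86 and 0.12.

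The un-treated My5.LV array bears on each of these My5.LV values. It was the lowest of the 12 arrays for hsa-miR-200a-3p, and for hsa-miR-429 it was the highest together with My5.LV at 120 hours. hsa-miR-200a-3p was therefore higher than un-treated on all 5 other My5.LV arrays, by 0.16 to 1.95, and hsa-miR-429 lower on all 5, by -2.16 to -0.01. All 5 comparisons share that 1 array.

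**Figure D3:**
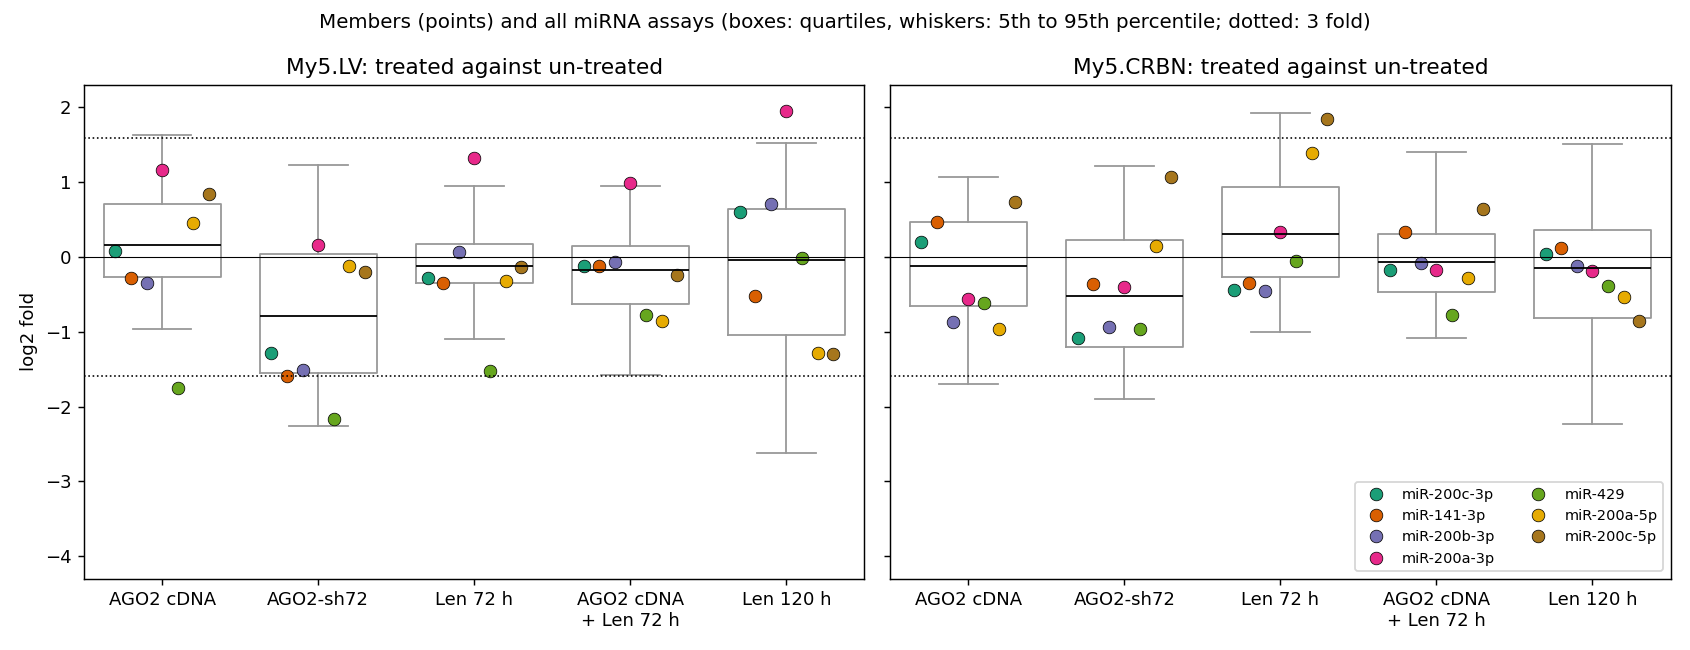
Log2 fold against the un-treated array of the same line (vertical axis) for the 5 treatments (horizontal axis), My5.LV left and My5.CRBN right. Coloured points are the 7 members, boxes (quartiles) and whiskers (5th to 95th percentile) are all miRNA assays, and the dotted lines mark 3 fold. Most members lie within the whiskers, and the AGO2-sh72 boxes themselves lie below 0.

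Adding AGO2 cDNA to 72 hours of lenalidomide was compared both with un-treated cells and with lenalidomide alone. Against un-treated cells, averaged over both lines, limma called 0% of miRNAs, 17 had an unadjusted p under 0.05 and none of those was a member. No member passed 3 fold in My5.LV (7.53% of assays did) or in My5.CRBN (5.11%). Against lenalidomide alone no member passed in My5.LV (6.99% of assays). In My5.CRBN hsa-miR-200a-5p was 3.19 fold lower, where 8.06% of assays passed, and hsa-miR-200c-5p was at -1.20. In that line both 5p arms were thus higher on the 72 hour lenalidomide array than on the array with AGO2 cDNA as well, which stood at -0.28 for hsa-miR-200a-5p and 0.65 for hsa-miR-200c-5p against un-treated cells.

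Over the 12 arrays 3 members went up and down together. Pearson's r between hsa-miR-200b-3p and hsa-miR-200c-3p was 0.88 (Spearman's rho 0.81), between hsa-miR-141-3p and hsa-miR-200c-3p 0.86 (rho 0.88), and between hsa-miR-141-3p and hsa-miR-200b-3p 0.77 (rho 0.75). These are descriptions over 12 arrays that share a normalizer and, within a line, an origin. Within My5.LV the r values were 0.93, 0.75 and 0.75 in the same order, and within My5.CRBN 0.48, 0.79 and 0.19. Without the 2 arrays farthest from the median of the first-named assay they were 0.79, 0.85 and 0.71. With each array centred on its own miRNAs they were 0.86, 0.83 and 0.71.

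hsa-miR-429 came next, at r = 0.68 with hsa-miR-200b-3p and 0.61 with hsa-miR-200c-3p, which fell to 0.38 and 0.26 without the 2 arrays farthest from the median of hsa-miR-429. For hsa-miR-200a-3p r was 0.08 with hsa-miR-141-3p, with which it shares a seed, and 0.51 and 0.27 with its chromosome 1 neighbours hsa-miR-200b-3p and hsa-miR-429. Without the 2 arrays farthest from its own median these became 0.37, 0.67 and 0.60. Without the 2 farthest from the median of the other assay of each pair they were 0.24, 0.22 and 0.60. Within My5.LV its r was 0.68 with hsa-miR-200b-3p and 0.66 with hsa-miR-200c-3p, and within My5.CRBN it was 0.76 with hsa-miR-429.

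The 5p arms were set against each other and against their own 3p arms. r was 0.75 (rho 0.67) between hsa-miR-200a-5p and hsa-miR-200c-5p, which come from different chromosomes. Within My5.LV it was 0.92 and within My5.CRBN 0.66, and it fell to 0.48 without the 2 arrays farthest from the median of hsa-miR-200a-5p and to 0.68 without those of hsa-miR-200c-5p. It was -0.30 between the 2 arms of the miR-200c hairpin and -0.06 between those of miR-200a. For miR-200c it was below 0 in both lines (-0.27 and -0.53), while for miR-200a it was -0.56 within My5.LV and 0.84 within My5.CRBN. The r of the miR-200a arms became 0.46 without the 2 arrays farthest from the median of hsa-miR-200a-3p. It became 0.0055 without those of hsa-miR-200a-5p.

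**Figure D4:**
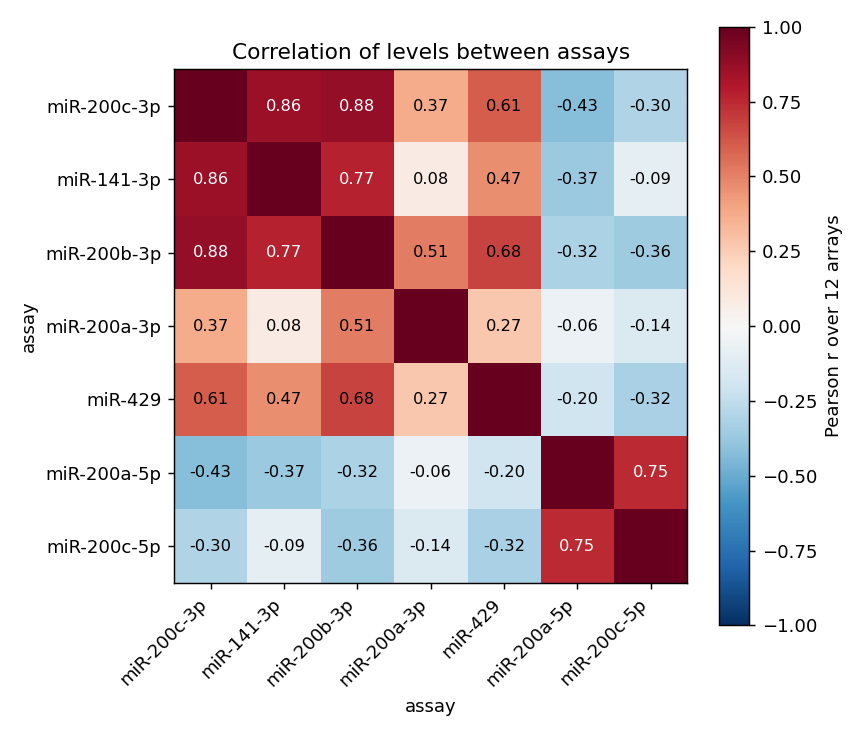
Pearson's r of the levels over the 12 arrays for each pair of the 7 assays (both axes), from blue (-1) to red (1). hsa-miR-200c-3p, hsa-miR-141-3p and hsa-miR-200b-3p form a block of 0.77 to 0.88, both 5p arms a pair at 0.75, and most values between the 3p block and the 5p pair are below 0.

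The difference between 2 assays on the same array needs no normalizer. hsa-miR-200c-3p came up 1.08 to 2.36 cycles before hsa-miR-200b-3p, with a median of 1.36 and an SD of 0.36 over 12 arrays. On 11 arrays the difference was between 1.08 and 1.87, and the exception was My5.CRBN with AGO2 cDNA. hsa-miR-200c-3p against hsa-miR-141-3p was as narrow, with an SD of 0.37 and a range from 0.59 to 2.09. For scale, the duplicate wells of the reverse transcription control differed by 0.187 cycles and those of the PCR control by 0.383 (root mean square over 12 arrays). Those of cel-miR-39-3p, which came up late, between Ct 31.5 and the limit of 35, differed by 1.43 cycles. Member assays had 1 well each, so the spread of the later ones between wells was not measured.

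Within the chromosome 1 cluster 1 or both assays of a pair came up later. The SD was 0.66 for hsa-miR-200b-3p against hsa-miR-200a-3p, 0.58 for hsa-miR-200b-3p against hsa-miR-429 and 0.75 for hsa-miR-200a-3p against hsa-miR-429. The lead of hsa-miR-200b-3p over hsa-miR-200a-3p was smaller in My5.CRBN than in My5.LV in 6 of 6 states, by 0.90 on average. That of hsa-miR-200c-3p over hsa-miR-429 was also smaller in 6 of 6 states, by 0.65 on average. Neither was tested, since both were chosen after their values were seen.

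The arms of 1 hairpin were compared in the same way. hsa-miR-200c-3p came up 5.33 cycles before hsa-miR-200c-5p in un-treated My5.LV and 5.17 before it in un-treated My5.CRBN. With AGO2-sh72 the lead was 4.24 and 3.01, and at 72 hours of lenalidomide 5.17 and 2.89. At 120 hours it was 7.24 and 6.06, the widest of each line. The smallest and the widest lead were thus 4.35 cycles apart, with an SD of 1.20. hsa-miR-200a-3p came up after hsa-miR-200a-5p on 11 of 12 arrays, by 0.68 to 2.53 cycles, and before it, by 0.71, in My5.LV at 120 hours of lenalidomide.

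**Figure D5:**
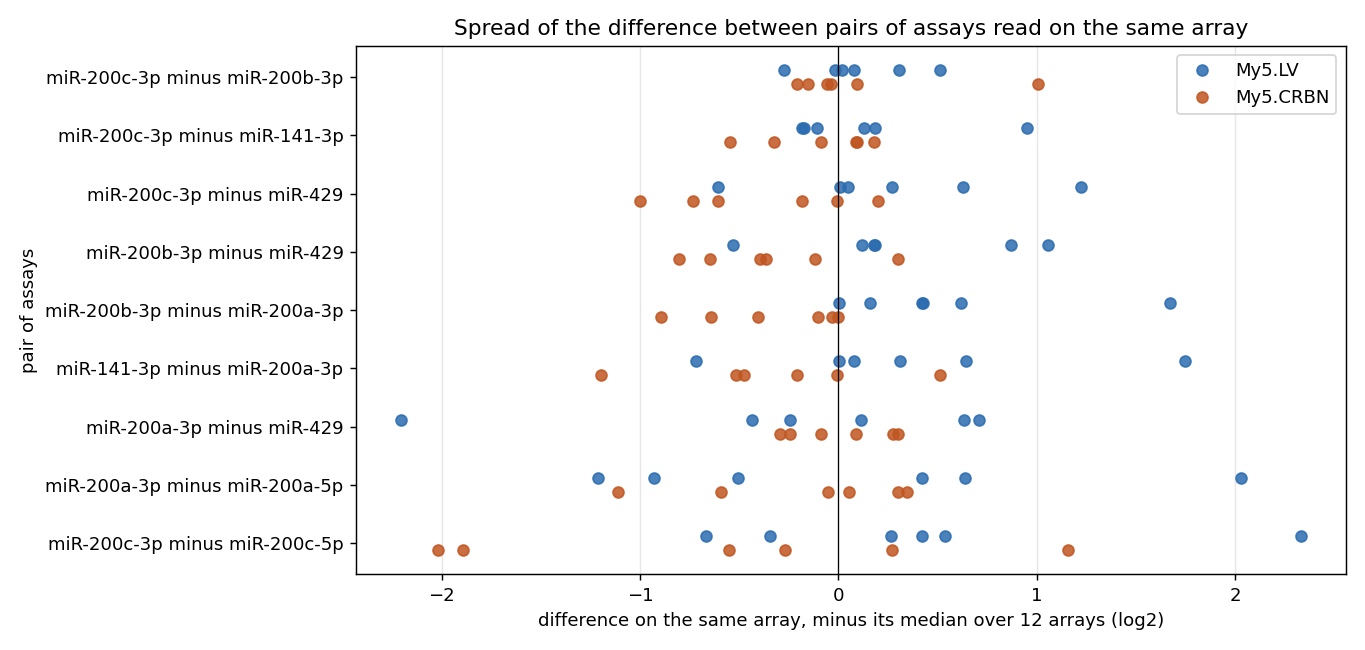
Difference in level between 2 assays on the same array minus its median over 12 arrays (log2, horizontal axis) for 9 pairs (vertical axis), with My5.LV in blue and My5.CRBN in orange, 1 point per array. The points of hsa-miR-200c-3p minus hsa-miR-200b-3p and minus hsa-miR-141-3p lie close together (SD 0.36 and 0.37), and those of the 2 arms of miR-200c spread widest (SD 1.20).

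For each member the 2 assays with the highest r over the 12 arrays were picked from the 313 others that passed Ct 35 on all arrays. For hsa-miR-200c-3p they were hsa-miR-149-5p (r = 0.93) and hsa-miR-204-5p (0.91), and for hsa-miR-200b-3p hsa-miR-20b-5p (0.91) and hsa-miR-195-5p (0.89). For hsa-miR-141-3p they were hsa-miR-185-5p and hsa-miR-193b-3p (both 0.87). For hsa-miR-429 they were hsa-miR-18a-5p and hsa-miR-146b-5p (both 0.81). For hsa-miR-200a-3p they were hsa-miR-542-5p (0.90) and hsa-miR-361-5p (0.70), for hsa-miR-200a-5p hsa-miR-605-5p (0.94) and hsa-miR-34c-3p (0.91), and for hsa-miR-200c-5p hsa-miR-187-3p (0.95) and hsa-miR-338-5p (0.93). Picked as the best of 313 from 12 points, such values are high by construction. The median r of a member with all 313 was between 0.01 and 0.28. No member was among the 14 named, while with the global mean hsa-miR-200c-3p was the second for hsa-miR-141-3p (r = 0.83).

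The 7 other epithelial miRNAs gave a frame for the family. Between the lines limma called none of the 6 that were tested. With AGO2-sh72 it called 3 of 6, all lower, namely miR-182-5p (-1.67), miR-183-5p (-1.53) and miR-96-5p (-1.07), which are made from 1 shared transcript. Of the 4 blood cell markers tested there, miR-142-5p (-1.35) and miR-181a-5p (-1.30) also fell. The shares, 3 of 6 and 2 of 4, lie beside the 37.9% of all miRNAs that fell.

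In 5 of the 6 comparisons where a member passed 3 fold, some of these markers did as well. The exception was AGO2 cDNA plus lenalidomide against lenalidomide in My5.CRBN, where no marker of either list passed. With AGO2 cDNA in My5.LV, hsa-miR-205-3p was higher by 2.61 on the log2 scale and hsa-miR-155-5p lower, at -2.001. With AGO2-sh72 in My5.LV, hsa-miR-205-3p stood at 1.63 and hsa-miR-182-5p at -1.69. At 120 hours in My5.LV, hsa-miR-375 stood at -2.53, while hsa-miR-203a and hsa-miR-155-5p were at the Ct limit on the treated array, so that they were lower by at least 5.21 fold and 20.4 fold. In My5.CRBN at 72 hours of lenalidomide hsa-miR-205-5p stood at 3.19 and hsa-miR-375 at 1.61. Between the lines at 72 hours hsa-miR-205-5p stood at 3.67 and hsa-miR-155-5p at 2.56, both higher in My5.CRBN. hsa-miR-205-5p, which like the miR-200 family represses ZEB factors, thus moved further between single arrays than any member did.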

How the data were processed

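Total RNA from 12 cultures was reverse transcribed and read with SYBR Green on miScript arrays (384 wells, 1 array per state). The deposited values are Ct scores, not normalized by the authors. A second deposited table holds the authors' linear ratios of 11 arrays to un-treated My5.LV, made with the maker's online software, and was not used. Undetermined wells were set to Ct 35, as were later ones. Levels were the mean Ct of 6 control wells minus the assay's Ct. Pairs of arrays were compared by log2 fold with a limit of 3 fold, without a test. limma 3.58.1 in R 4.3.3 (lmFit, eBayes, Benjamini-Hochberg) was fitted with line and state as terms to the 314 miRNAs under Ct 35 on all 12 arrays, with 5 residual degrees of freedom. In simulated arrays of those 314 miRNAs it recovered 38 of 60 line differences of 1 log2 unit and 60 of 60 of 2 units. False calls beside them were 3 and 0. For AGO2-sh72 it recovered 4 of 60 and 50 of 60, with 1 false call each. The simulated noise was independent, without error shared by the assays of an array, and 60 changed miRNAs exceed the 10 called between the lines. Recovery may therefore be overstated for the real arrays. Depth has no counterpart in Ct data, and precision is limited by 1 well per assay and 1 array per state. Members, lists and tests were chosen with earlier results of these data known. The genes named are all assays of the family, their 2 most alike miRNAs, and listed marker miRNAs past 3 fold where a member also was. Other normalizers, a Ct limit of 32, all 372 miRNAs and leaving out arrays were tried. Sequences are from RefSeq (GRCh38.p14).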

Additional observations from a re-analysis of the deposited data

Results flagged for a closer look

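Over 49 pairs of a member and a comparison made in both lines, 5 results went opposite ways in the lines, each by more than the spread of the control wells between the same arrays. With AGO2 cDNA against un-treated, hsa-miR-200a-3p stood at 1.16 in My5.LV and -0.56 in My5.CRBN on the log2 scale, a difference of -1.73 between the lines. hsa-miR-200a-5p stood at 0.46 and -0.96 in the same comparison, a difference of -1.42. At 72 hours of lenalidomide hsa-miR-200a-5p stood at -0.32 and 1.39, a difference of 1.71. With AGO2 cDNA against AGO2-sh72 the same assay stood at 0.58 and -1.11, a difference of -1.69. With AGO2 cDNA plus lenalidomide against lenalidomide hsa-miR-429 stood at 0.74 and -0.72, a difference of -1.46. Each value rests on 1 array against 1 array, and the differences between the lines were not tested. The same count was not made over all assays, so 5 of 49 has no share of the array to be set beside.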

How the results depend on the processing

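The direction of the difference between the lines for hsa-miR-200c-3p, hsa-miR-200b-3p and hsa-miR-141-3p held under every alternative tried, while calls with AGO2-sh72 turned on the normalizer. Of 84 wells, 84 lay under the worm miRNA but 79 under Ct 32, with hsa-miR-429 on 9 of 12 arrays and hsa-miR-200a-3p on 10. Between the lines the adjusted p of hsa-miR-200c-3p ran from 0.0284 to 0.0705 over the normalizers, the limit of Ct 32 and all miRNAs of the array, and it missed the threshold with RNU6 alone (0.0705) and with all miRNAs (0.0520). That of hsa-miR-200b-3p ran from 0.0338 to 0.0929 and passed with the global mean (0.0338), the reverse transcription control (0.0360) and the limit of Ct 32 (0.0473). With AGO2-sh72 hsa-miR-141-3p passed with RNU6 alone (0.00730) and the reverse transcription control (0.0218). hsa-miR-200b-3p (0.0582) and hsa-miR-429 (0.0513) missed it with the 5 SNORD wells, hsa-miR-429 at Ct 32 (0.0678) and hsa-miR-200b-3p with all miRNAs (0.0508). 11 of the 14 most alike miRNAs were also named with the global mean. Of 140 member values from pairs of arrays, 7 passed 3 fold, while 1.08% to 25.5% of all assays did in the single comparisons. Under the other normalizers and Ct 32, 5 to 15 member values did, and the share of all assays was not counted there.

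Counts of called miRNAs moved as follows. With all miRNAs they were 4 between the lines and 0 with AGO2 cDNA. With RNU6 alone they were 8 with AGO2 cDNA, 186 with AGO2-sh72 and 20 with AGO2 cDNA plus lenalidomide. With the global mean they were 32 with AGO2-sh72, 18 higher and 14 lower, 51 at 120 hours and 1 with AGO2 cDNA plus lenalidomide. The latter was 1 also with the 5 SNORD wells, the reverse transcription control and Ct 32. At 120 hours the reverse transcription control gave 45. Leaving out 1 pair or array gave 3 to 16 between the lines, 0 to 8 with AGO2 cDNA, 0 to 100 with AGO2-sh72, 0 to 1 at 72 hours, 0 to 1 with AGO2 cDNA plus lenalidomide and 12 to 18 at 120 hours. The treatment fits that leave out 1 array were chosen after seeing the data.

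Values near 0 changed sign. With AGO2-sh72 hsa-miR-200a-3p became 0.59 with the global mean and 0.024 with the 5 SNORD wells. hsa-miR-200a-5p became -0.70 with RNU6 alone and -0.22 with the reverse transcription control, and hsa-miR-200c-5p became -0.28 with RNU6 alone. Between the lines hsa-miR-200a-3p became 0.028 with RNU6 alone and 0.060 at Ct 32. Leaving out arrays, the AGO2-sh72 values ran from -0.78 to 0.54 for hsa-miR-200a-3p, from -0.18 to 0.20 for hsa-miR-200a-5p and from -0.0091 to 0.88 for hsa-miR-200c-5p. Those between the lines ran from -0.25 to 0.18, from -0.060 to 0.57 and from -0.20 to 0.22 for the same assays.

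The median log2 fold of the 7 members moved by more than the spread of the control wells in 22 of 120 cases. With RNU6 alone it became -0.56 for My5.LV with AGO2 cDNA, -2.27 with AGO2-sh72, -1.29 with AGO2 cDNA plus lenalidomide, 1.39 for AGO2 cDNA against AGO2-sh72 and -1.17 for AGO2 cDNA plus lenalidomide against lenalidomide. For My5.CRBN it became -0.85 with AGO2-sh72, -0.85 with AGO2 cDNA plus lenalidomide and -1.23 for the latter against lenalidomide. Between the lines it became -0.96 un-treated and 0.45 with AGO2-sh72. With the global mean it became -0.42 for AGO2-sh72 and -0.0025 for AGO2 cDNA against AGO2-sh72 in My5.LV. In My5.CRBN it became 0.15 with AGO2-sh72, -0.40 at 72 hours and 0.045 at 120 hours. Between the lines it became -0.076 with AGO2-sh72 and -0.31 at 72 hours. With the reverse transcription control it became 0.80 for AGO2 cDNA against AGO2-sh72 in My5.LV, -0.77 with AGO2-sh72 in My5.CRBN and -0.075 between the lines with AGO2-sh72. At Ct 32 it became 0.19 with AGO2 cDNA and 0.54 for AGO2 cDNA against AGO2-sh72 in My5.CRBN. Normalizers moved all assays together, with the median of all assays between -0.79 and 0.86 over the comparisons with the control wells and between -0.19 and 0.18 with the global mean. The global mean holds that median near 0 by construction. The labels carry no replicate numbers, and the fit between the lines is itself paired over the 6 matched states.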
